A study of Rattus norvegicus with 35 samples.

Results

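The nuclear-encoded subunits of the mitochondrial respiratory chain were followed in primary rat hepatocytes (Rattus norvegicus) exposed to triazole antifungals. Members were the probe sets of an Affymetrix rat genome array that name a single gene whose symbol starts with Ndufa, Ndufb, Ndufc, Ndufs, Ndufv, Uqcr, Cox4 to Cox8 or Atp5, or is Sdha, Sdhb, Sdhc, Sdhd or Cycs. Complex I assembly factors were left out. This gave 89 of 31099 probe sets, for 80 genes. Complex I had 37 probe sets, complex II 5, complex III 8, complex IV 19 and complex V, the ATP synthase, 20. Ndufa4 and its paralogue Ndufa4l2 were placed with complex IV. Cox6c-ps1, named as a pseudogene, also met the rule. No probe set named cytochrome c (Cycs) alone, and 9 probe sets naming a member beside another gene were set apart.

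All cultures were exposed through the medium for 72 h. The 35 arrays formed 12 groups. Vehicle cultures received 0.1% DMSO (3 arrays). Myclobutanil, propiconazole and triadimefon were each given at 10, 30 and 100 uM, with 3 arrays per dose. The positive controls were phenobarbital at 200 uM (3 arrays) and a compound labelled PCN at 30 uM (2 arrays). The 3 arrays of a group carried the codes Rs256, Rs293 and Rs304, and PCN had no Rs256 array. The submitters call the replicates biological, and the labels do not say what the codes stand for, nor give a strain, age or sex.

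The respiratory chain passes electrons from NADH (complex I) and succinate (complex II) through ubiquinone to complex III, then through cytochrome c to complex IV and oxygen. The proton gradient built on the way drives ATP synthase. Each large complex joins a core of catalytic subunits to many small accessory subunits, and several complex IV subunits have tissue isoforms, with a liver or ubiquitous form and a heart and skeletal muscle form. Liver cells depend on this chain for the energy used in biosynthesis and for the oxidation of fatty acids.

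Values are on the deposited scale, which is logarithmic in appearance with no stated base, after quantile normalization. All changes are differences on that scale and not folds. The deposited values of an array had a median between -0.03 and 0.02 and an SD between 0.65 and 0.94. Of the 89 members, 81 (76 genes) lay above the array's median on at least 2 of 35 arrays and were tested, among 17973 probe sets. Of these 81, 77 were above the median on all 35 arrays. The hepatocyte markers Alb, Apoa1, Ttr and Hnf4a were above the median on every array, as were Vim and Acta2 of the stellate cell list and Epcam of the bile duct list. The rest of these lists were not. Col1a1 and Col1a2 were above it on 0 or 1 arrays by probe set, Pdgfrb on 0 to 13, Col3a1 on 18 and Des on 21. Spp1 was above it on 0, Krt7 on 9 and Krt19 on 25. Of the macrophage list, Cd68 was above it on 32 arrays, Clec4f on 21, Csf1r on 9, and Cd163 and Adgre1 on 0. None of the 7 probe sets of the endothelial markers passed the filter.

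Before any comparison between compounds, 2 arrays stood apart for these genes. They were the myclobutanil 100 uM array of Rs293 and the propiconazole 30 uM array of Rs256. Set against the DMSO array of the same code, 33 of 81 members were lower by more than 0.5 on the first (1.36% of all probe sets tested) and 37 of 81 on the second (1.50% of all). The median difference over the members was -0.35 and -0.34. On the other 30 treated arrays, between 0 and 6 members were that much lower, the 6 being on the triadimefon 30 uM array of Rs293. The same members were low on both arrays in most cases: 30 were lower by more than 0.5 on both, out of 125 probe sets with that pattern, so that members made up 24% of them.

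The members low on both arrays comprised 13 probe sets of complex I, 3 of complex III, 7 of complex IV and 7 of ATP synthase, and none of complex II. The ATP synthase membrane subunit Atp5mf was lower by 1.10 and 1.03, the complex IV subunit Cox7c by 1.01 and 1.03, and Ndufa4 by 0.76 and 1.06. A list of core subunits and of the complex IV subunits Cox4i1, Cox5a and Cox5b had 11 probe sets. Of these, 1 was among the 30 (Cox5b, a complex IV subunit outside the catalytic core, lower by 0.76 and 0.93). The other 10 differed by -0.13 to 0.31 on the first array and by -0.18 to 0.18 on the second. The ATP synthase alpha subunit Atp5f1a differed by 0.03 and 0.16, the complex I iron-sulfur subunit Ndufs1 by -0.03 and 0.12, and the succinate dehydrogenase flavoprotein Sdha by 0.02 and 0.18. Outside that group of 11, the complex I iron-sulfur subunits Ndufs3 and Ndufs8 differed by -0.33 and -0.24 on the first array and by -0.02 and -0.07 on the second. Ndufs6 was just inside the 0.5 limit on the first array, at -0.50, and Uqcrh and Ndufa12 were just outside it, both at -0.49.

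**Figure D1:**
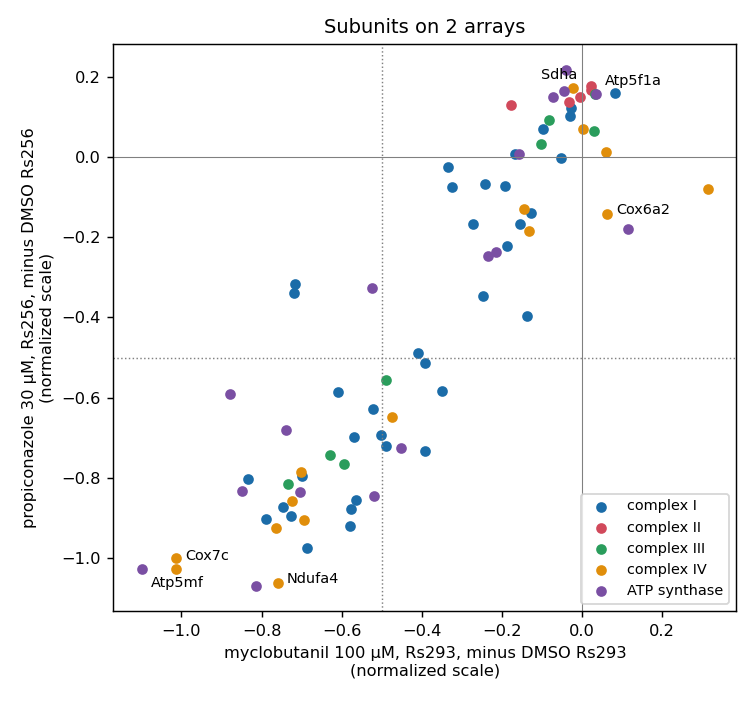
Each point is 1 of the 81 tested members, coloured by complex, with its level on the myclobutanil 100 uM Rs293 array minus the DMSO Rs293 array (x axis) against its level on the propiconazole 30 uM Rs256 array minus the DMSO Rs256 array (y axis), both on the normalized scale; dotted lines mark -0.5. The 30 members in the lower left include Atp5mf, Cox7c and Ndufa4, and complex II lies near 0 on both axes.

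The 95 other probe sets low on both arrays were described after their values were seen. They included further chain subunits, on probe sets set apart for naming another gene as well. These were Cox7a2 (-0.76 and -0.99), Uqcrb (-0.78 and -1.06) and Ndufs5 (-0.70 and -0.83). The 5 named genes with the lowest mean over both arrays were the fatty acid binding protein Fabp1 (-1.79 and -0.81), the fatty acid hydroxylases Cyp4a1 (-1.49 and -1.03) and Cyp4a3 (-1.34 and -0.82), the carboxylesterase Ces1d (-1.29 and -1.16) and the apolipoprotein Apoc1 (-1.06 and -1.02). Others were picked here for their place in mitochondria, transcription or translation. They were the outer membrane translocase subunits Tomm6 and Tomm7, the mitochondrial chaperone Timm8b, and the mitochondrial ribosomal proteins Mrpl33, Mrpl57 and Mrps21. Also among them were the RNA polymerase II subunits Polr2f, Polr2i and Polr2l, and the ribosomal proteins Rpl34, Rpl35, Rpl35a, Rpl37a, Rps15 and Rps29. Genes of other kinds were low on both arrays as well, such as Ost4, S100a6, S100a11, Mt2A and Tmsb4x. Over 53 ribosomal protein probe sets the median differences were -0.04 and -0.12. The difference between 3' and 5' probe sets of Actb, a measure of RNA integrity, was 0.83 and 0.99 on the 2 arrays, in a range of 0.51 to 0.99 over all 35; that of Gapdh was 0.23 and 0.20, in a range of 0.06 to 0.34. Their part in the pattern was not tested. In the values as deposited, the members' medians were -0.28 and -0.29. Other arrays moved on that scale too. The propiconazole 30 uM array of Rs293, with the widest SD (0.94), had a members' median of 1.12, and that of Rs304 -0.22. The separation of the 2 arrays thus depends in part on the normalization.

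The 30 members were chosen on those 2 arrays and their DMSO arrays, so their spread was read on the other 30 treated arrays. There the median pairwise correlation of their deviations from the group and code means was 0.90, against 0.31 among the other 51 members. These correlations describe probe sets that share arrays and normalization. The median within-group SD on these 30 arrays was 0.15 for the 30 members, 0.09 for the other 51 and 0.07 over all probe sets tested.

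**Figure D2:**
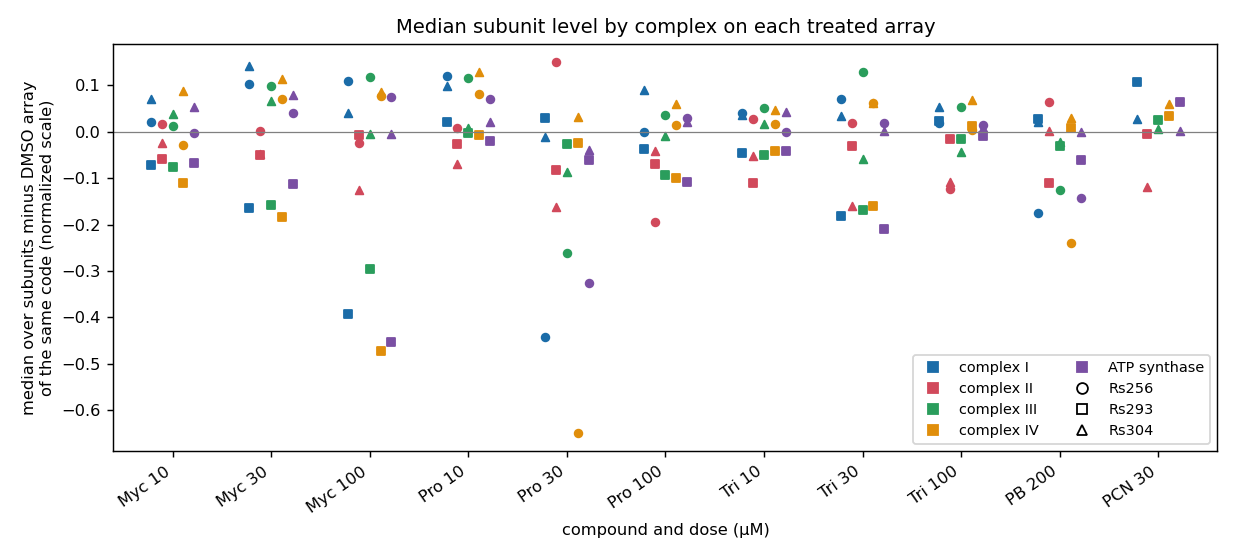
For each treated array, the median over the tested members of each complex is plotted as the difference from the DMSO array of the same code (normalized scale), by compound and dose in uM, with colour for complex and marker shape for code. The myclobutanil 100 uM Rs293 array and the propiconazole 30 uM Rs256 array lie lowest for complexes I, III, IV and ATP synthase.

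At 100 uM, the highest dose, few subunits changed against DMSO. With propiconazole, 2 of 81 members passed limma's test at an adjusted p below 0.05: Cox6a2, the heart and muscle isoform of complex IV subunit 6A, rose, and Atp5f1b, the catalytic beta subunit of ATP synthase, fell. This is 2.47% of the members, against 11.3% of all probe sets tested. With triadimefon, 1 of 81 members passed (Cox6a2, higher), against 1.55% of all. With myclobutanil, 0 of 81 passed, with 3 at an unadjusted p below 0.05, against 0.785% of all.

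The median change over the 81 members was -0.002 with propiconazole, 0.02 with triadimefon and -0.07 with myclobutanil, beside medians between 0.004 and 0.005 over all probe sets. With myclobutanil 65 of 81 members were below 0. The Rs293 array that stood apart belongs to that group: without the 2 arrays, 23 of 81 members were below 0 and the median was 0.05. For propiconazole 30 uM, which holds the other array, 68 of 81 were below 0 with a median of -0.13, and without the 2 arrays 41 of 81 with a median of -0.01.

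**Figure D3:**
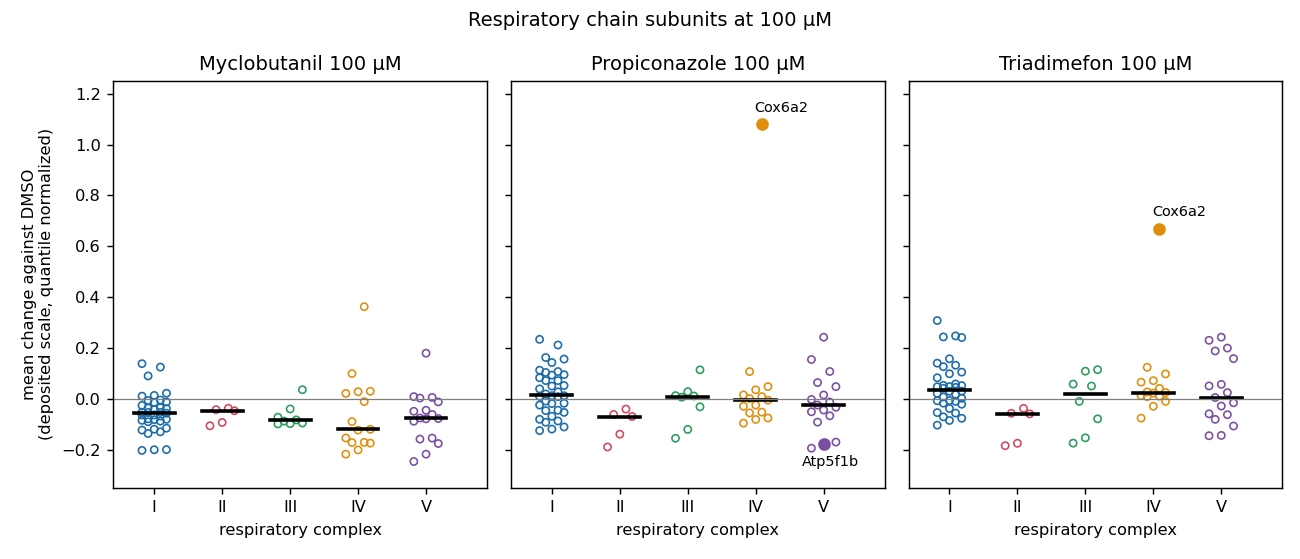
Each point is the mean change of 1 tested member against DMSO (normalized scale, 3 arrays against 3) at 100 uM, by complex; filled points passed limma's test at an adjusted p below 0.05 and black bars are medians. Cox6a2 stands above the other members with propiconazole and triadimefon, and Atp5f1b is the filled point below 0.

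At 100 uM, Cox6a2 had the largest difference from DMSO among the members with each of the 3 triazoles. For myclobutanil, where it did not pass, this order turned without the 2 arrays that stood apart (Cox6a2 0.45, Ndufa3 0.46). Complex IV holds either the liver and ubiquitous isoform Cox6a1 or the muscle isoform Cox6a2 at this position. In the order Rs256, Rs293 and Rs304, the Cox6a2 level was 0.19, 0.44 and 0.33 in DMSO. It was 0.95, 1.59 and 1.65 with 100 uM propiconazole, 0.79, 0.99 and 1.18 with 100 uM triadimefon, and 0.72, 0.50 and 0.82 with 100 uM myclobutanil. All arrays of the 3 triazoles at 100 uM lay above the highest DMSO array, and each lay above the DMSO array of its own code.

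The group means were 0.32 ± 0.13 (SD, n = 3) in DMSO, 1.40 ± 0.38 (SD, n = 3) with propiconazole, 0.99 ± 0.19 (SD, n = 3) with triadimefon and 0.68 ± 0.16 (SD, n = 3) with myclobutanil. The rise with propiconazole was 1.08 (SE 0.174, adjusted p = 0.000157). It passed the test under every alternative run, with changes of 0.95 to 1.30 when single arrays or codes were left out. The rise with triadimefon was 0.67 (SE 0.174, adjusted p = 0.0474), or adjusted p = 0.000712 with the code as a replicate block. That call rested on every array: leaving out any 1 of the 6 arrays gave an adjusted p between 0.0789 and 0.225. The difference with myclobutanil, 0.36 (SE 0.174), did not pass (adjusted p = 0.508).

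Cox6a2 at the lower doses lay closer to DMSO. With 30 uM propiconazole the 3 arrays read 0.04, 0.64 and 0.78, and with 10 uM 0.29, 0.53 and 0.72. With 30 uM triadimefon they read 0.49, 0.42 and 0.81, and with 30 uM myclobutanil 0.38, 0.46 and 0.45. Phenobarbital gave 0.19, 0.57 and 0.31, and PCN 0.42 (Rs293) and 0.49 (Rs304), both overlapping DMSO. The slope over log10 dose was 0.90 per log10 unit of dose for propiconazole (SE 0.174, adjusted p = 0.00166), the only member slope to pass among the 3 triazoles, against 7.94% of all probe sets for propiconazole, 0.206% for myclobutanil and 0.0612% for triadimefon. It did not pass when only the 3 doses were fitted. With the block, the triadimefon slope of 0.47 also passed (adjusted p = 0.0360), against 2.81% of all. So did 5 member slopes for propiconazole, against 22.3% of all, among them 1 of 2 probe sets of Ndufv3 (-0.25, the second at 0.02) and the supercomplex factor Cox7a2l (0.12), and 1 for myclobutanil (Atp5mc3, -0.14), against 5.02%.

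**Figure D4:**
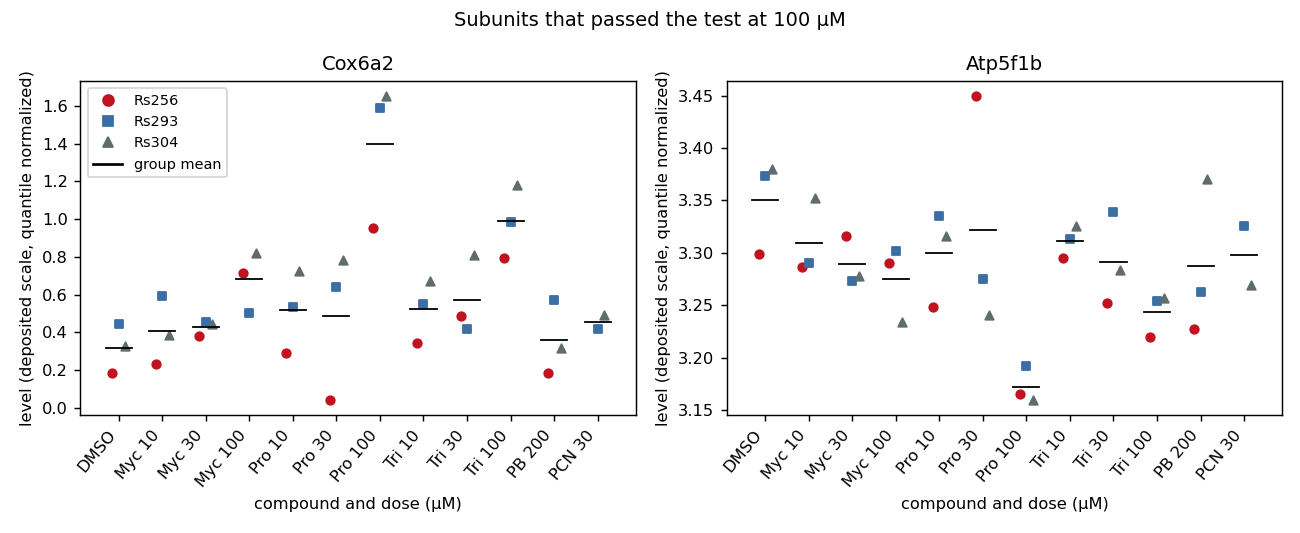
Levels of Cox6a2 (left) and Atp5f1b (right) on each of 35 arrays (deposited scale, quantile normalized) by compound and dose in uM; marker and colour give the code and black bars the group mean. The propiconazole 100 uM arrays are at 0.95 to 1.65 for Cox6a2 and at 3.16 to 3.19 for Atp5f1b.

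The 3 compounds at matched dose and time were compared as 9 pairs, and limma's test called 0 of 81 members in any of them, with 7 of 729 tests at an unadjusted p below 0.05. Over all probe sets 0.562% were called for propiconazole against myclobutanil and 0.501% for propiconazole against triadimefon at 100 uM, and 0 in the other pairs. Cox6a2 differed by 0.72 between propiconazole and myclobutanil at 100 uM (adjusted p = 0.0558) and by 0.41 between propiconazole and triadimefon (adjusted p = 0.443). With the code as a block both passed, against 5.84% and 5.22% of all. The first had a 95% interval of 0.47 to 0.97 and an adjusted p of 0.000705, and the second an interval of 0.16 to 0.66 and an adjusted p of 0.0467. Myclobutanil and triadimefon differed by -0.31, which did not pass, with an interval of -0.56 to -0.06 and an adjusted p of 0.748 with the block and an interval of -0.67 to 0.05 without it. Cell type markers differed in the same blocked pairs. Relative to myclobutanil and to triadimefon, propiconazole was higher for the macrophage marker Cd68 by 0.65 and 0.41, and lower for Vim by 0.39 and 0.23 and for the hepatocyte enzyme Cyp2c11 by 0.59 and 0.48. Each was the only called probe set of its cell type list, and their part in the Cox6a2 differences was not tested.

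The other muscle isoforms were at or below the middle of the arrays. Cox8b was above the array's median on 0 of 35 arrays and Cox7a1 on 1 of 35, so neither was tested. The partner isoform Cox6a1 differed by 0.05 with propiconazole (SE 0.152), 0.01 with triadimefon and -0.12 with myclobutanil. Cox8a, the liver isoform of subunit 8, differed by -0.08, 0.02 and -0.15, and none of these passed. The myclobutanil differences turned to 0.03 for Cox6a1 and 0.10 for Cox8a without the 2 arrays that stood apart. The smooth muscle and stellate cell marker Acta2 and the muscle filament Des were in a list of 6 tested stellate cell probe sets. Without the block 0 of these passed at 100 uM of any triazole. With the block, Vim of that list fell by 0.27 with 100 uM propiconazole (limma's adjusted p = 0.000227).

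The promoter of Cox6a2 was examined as that of the member that rose. Those of Atp5mc3 and Ndufa11 are shown for a c subunit gene and for a member low on both arrays. Each holds the motif marked in it, Ndufa11 with 4 matches, so they do not stand for the members at large. The 250 bases before the start are given from RefSeq (GRCr8), 5' to 3' on the gene's strand. The Cox6a2 stretch is chr1:192219717-192219966 (minus strand), with a match to TAAAAATAG, a form of the MEF2 motif of muscle genes, in capitals. The Atp5mc3 stretch is chr3:79220665-79220914 (minus strand), with a match on the reverse strand to the estrogen-related receptor (ERR) motif TCAAGGTCA in capitals. The Ndufa11 stretch is chr9:1637364-1637613 (plus strand), with overlapping matches to the nuclear respiratory factor 1 (NRF1) motif GCGCNTGCG in capitals.
Cox6a2: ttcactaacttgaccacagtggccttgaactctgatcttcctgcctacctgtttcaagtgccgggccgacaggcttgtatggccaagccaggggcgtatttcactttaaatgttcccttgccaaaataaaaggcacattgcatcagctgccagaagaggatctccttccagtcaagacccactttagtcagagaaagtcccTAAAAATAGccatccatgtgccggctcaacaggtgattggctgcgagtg
Atp5mc3: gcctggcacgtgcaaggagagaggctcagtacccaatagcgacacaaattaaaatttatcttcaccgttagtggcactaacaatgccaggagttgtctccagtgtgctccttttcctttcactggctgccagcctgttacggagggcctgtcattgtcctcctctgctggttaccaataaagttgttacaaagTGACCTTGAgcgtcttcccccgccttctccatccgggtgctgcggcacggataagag
Ndufa11: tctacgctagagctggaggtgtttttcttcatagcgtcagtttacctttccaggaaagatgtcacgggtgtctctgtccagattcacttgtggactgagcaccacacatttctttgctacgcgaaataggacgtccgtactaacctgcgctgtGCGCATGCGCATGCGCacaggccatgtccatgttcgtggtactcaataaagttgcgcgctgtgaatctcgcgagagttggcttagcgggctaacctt
Of the 80 member genes, 72 had a promoter in the RefSeq table. On either strand, the MEF2 motif was in 1 of 72 (Cox6a2), against 0.51% of 27457 promoters. The NRF1 motif was in 14 of 72, or 19.4%, against 5.77% of all, and among them were Uqcrc1, Sdha, Sdhd, Ndufs6 and Ndufv3. The ETS motif CCGGAAGT, the core bound by nuclear respiratory factor 2, was in 8 of 72, or 11.1%, against 3.45%. Of 28 genes low on both arrays with a promoter, 5 held the NRF1 motif, Ndufa11 among them, and 5 the ETS motif. The ERR motif was in 1 of 72 (Atp5mc3), against 0.397%. Matches describe these letters only.

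The 1 member that fell belongs to ATP synthase. Atp5f1b, in the order Rs256, Rs293 and Rs304, was at 3.30, 3.37 and 3.38 in DMSO and at 3.17, 3.19 and 3.16 with 100 uM propiconazole, with no overlap. The difference was -0.18 (SE 0.0425, adjusted p = 0.00598). It was -0.11 with triadimefon (adjusted p = 0.270) and -0.08 with myclobutanil (adjusted p = 0.628). The propiconazole call was lost without quantile normalization (adjusted p = 0.899 on the deposited values), without code Rs293 (0.127) or Rs304 (0.168), and with only these groups in the fit (0.0596).

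Its partner in the catalytic head, the alpha subunit Atp5f1a, was at 2.93, 2.98 and 3.10 in DMSO and 2.70, 2.84 and 2.88 with 100 uM propiconazole. Its difference of -0.19 missed the threshold (adjusted p = 0.0550) and passed with the code as a block (adjusted p = 0.0177). With that block, propiconazole 100 uM had 6 of 81 members past the test, against 27.1% of all probe sets. The others were Atp5mc3, a copy of the proton-carrying c subunit (-0.17), the Rieske iron-sulfur protein of complex III, Uqcrfs1 (-0.16), and 1 of 2 probe sets of the complex II membrane anchor Sdhd (-0.19). The second Sdhd probe set differed by -0.06 and did not pass.

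The c subunit gene Atp5mc3 was low across compounds. DMSO arrays read 3.23, 3.26 and 3.37, propiconazole 3.06, 3.08 and 3.20, triadimefon 3.09, 3.10 and 3.22, and myclobutanil 3.14, 3.02 and 3.16, all at 100 uM. Each of the 32 treated arrays was below the DMSO array of its code, but these comparisons share the same 3 DMSO arrays. Atp5mc3 passed in no comparison without the block (adjusted p = 0.0760 with propiconazole). With it, the call was made at 100 uM for propiconazole (adjusted p = 0.00216), myclobutanil (-0.18, adjusted p = 0.00648) and triadimefon (-0.15, adjusted p = 0.0198), and at 30 uM for propiconazole (-0.19, adjusted p = 0.0140). Without quantile normalization the triadimefon difference was 0.02 and the propiconazole 30 uM difference 0.31, the opposite direction. The shares of all probe sets called with the block were 8% for myclobutanil, 9.96% for triadimefon and 1.81% for propiconazole 30 uM.

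Complexes I, II and III held no call without the block. In complex I, 0 of 36 tested members passed at 100 uM with any triazole, with or without the block, and without it none had an unadjusted p below 0.05. Of these 36, 13 were low on both arrays that stood apart, and those arrays widened their errors. Small changes in these 13 could thus be missed. Ndufs1 differed by -0.07 with propiconazole, -0.10 with triadimefon and -0.06 with myclobutanil, and the NADH-binding flavoprotein Ndufv1 by -0.01, -0.02 and -0.03. All 5 complex II probe sets were below DMSO with each triazole, with differences of -0.04 to -0.19 for propiconazole, and 0 passed without the block, with 1 at an unadjusted p below 0.05 for propiconazole and for triadimefon. Sdha differed by -0.14 with propiconazole (SE 0.102) and the iron-sulfur subunit Sdhb by -0.07 (SE 0.0697).

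In complex III, 0 of 8 passed without the block, with 1 at an unadjusted p below 0.05 for triadimefon. Uqcrfs1 was at 2.27, 2.35 and 2.52 in DMSO, 2.13, 2.17 and 2.37 with propiconazole and 2.17, 2.24 and 2.26 with triadimefon at 100 uM. Its differences of -0.16 and -0.15 passed with the block (adjusted p = 0.0187 and 0.0435). The core subunit Uqcrc1 differed by 0.01 and -0.01. Among the listed complex IV subunits, Cox4i1 differed by -0.08 with propiconazole, Cox5a by 0.001 and Cox5b by -0.02, and none passed.

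Apart from Cox6a2, the members with the largest change that did not pass were accessory or regulatory subunits. With propiconazole Atp5if1, the inhibitor of ATP synthase, differed by 0.24 (SE 0.173) on 1 probe set and by -0.002 on the other tested. With triadimefon Ndufa3 differed by 0.31 (SE 0.261). With myclobutanil Atp5mf differed by -0.25 (SE 0.276), in the group that holds an array that stood apart, and by 0.09 without the 2 arrays. In the other 8 treatments limma's test called 0 of 81 members, with 9 of 648 tests at an unadjusted p below 0.05, against 0.0278% of all probe sets for triadimefon 30 uM, 0.0111% for propiconazole 30 uM, 0.00556% for myclobutanil 30 uM, propiconazole 10 uM, phenobarbital and PCN, and 0% for the remaining 2.

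Genes that build, feed or surround the chain were read from 5 lists with 117 tested probe sets. With propiconazole at 100 uM 13 of them passed, beside the 11.3% of all probe sets, and with myclobutanil and triadimefon 1 each, beside 0.785% and 1.55%. For propiconazole at 100 uM, 2 of 50 tested assembly factor probe sets passed: the complex IV factor Coa5 rose by 0.38 and the ATP synthase factor Atpaf1 fell by 0.28. Of 21 biogenesis and mitochondrial DNA maintenance probe sets, Esrra, which encodes the receptor ERR alpha, rose by 0.18 and the mitochondrial transcription factor Tfb2m fell by 0.20. Their list medians were 0.04 and 0.04.

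The list of other electron donors to ubiquinone also held Cyc1, the cytochrome c1 of complex III, whose symbol falls outside the member rule. Among the 10 tested probe sets of this list was Etfdh, which passes electrons from fatty acid oxidation. Etfdh fell by 0.74 with propiconazole (adjusted p = 2.78e-06), by 0.43 with myclobutanil (adjusted p = 0.0145) and by 0.41 with triadimefon (adjusted p = 0.0107). The proline dehydrogenase Prodh fell by 0.27 with propiconazole. Of 22 citric acid cycle probe sets, 1 of citrate synthase Cs rose by 0.34 and 2 of the pyruvate dehydrogenase subunit Pdha1 by 0.20 and 0.29. The succinyl-CoA ligase subunit Suclg2 fell by 0.22 and the kinase Pdk2 by 0.26. Of 14 carriers, the ADP/ATP carrier Slc25a4 fell by 0.73 and the carnitine carrier Slc25a20 by 0.32. Etfdh alone passed with myclobutanil and triadimefon without the block. With it, 33 of 117 passed for propiconazole (27.1% of all), 12 for myclobutanil (8% of all) and 14 for triadimefon (9.96% of all). Among these, Slc25a4 fell by 0.49 with myclobutanil and by 0.50 with triadimefon, and the electron transfer flavoprotein subunit Etfb by 0.23 with both. The same Cs probe set rose by 0.22 with myclobutanil and by 0.19 with triadimefon. Another Cs probe set went the other way with propiconazole, lower by 0.15 with the block (limma's adjusted p = 0.000245). Beside these lists and without the block, the macrophage list had 1 of 3 tested probe sets higher with propiconazole (Cd68, by 0.80). The hepatocyte list had 1 of 11 lower (Cyp2c11, by 0.54). The part of these 2 markers in the differences was not tested.

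The codes of the replicates were compared over 11 Rs256 arrays and 24 others. Their counts are thus not comparable with those of the compounds, at 3 arrays against 3. In a fit with group and code, Rs256 differed from the mean of Rs293 and Rs304 at 30 of 81 members (12 higher, 18 lower), against 58.6% of all probe sets (29% higher, 29.6% lower). The largest difference was at Ndufa4l2, a paralogue of the complex IV subunit Ndufa4 that is known to be induced in hypoxia. Its level was 1.78 to 2.10 on the 11 Rs256 arrays and -0.03 to 0.23 on the 24 others, a difference of 1.87 (SE 0.0281, adjusted p = 2.56e-25). Cox4i2, the isoform of Cox4i1 that is also linked to low oxygen, was higher by 0.36 (SE 0.0292), at 0.07 to 0.52 on Rs256 arrays and at -0.16 to -0.04 on the others. Cox4i2 passed the filter through 11 of 35 arrays, so its direction followed from the filter and is a description.

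**Figure D5:**
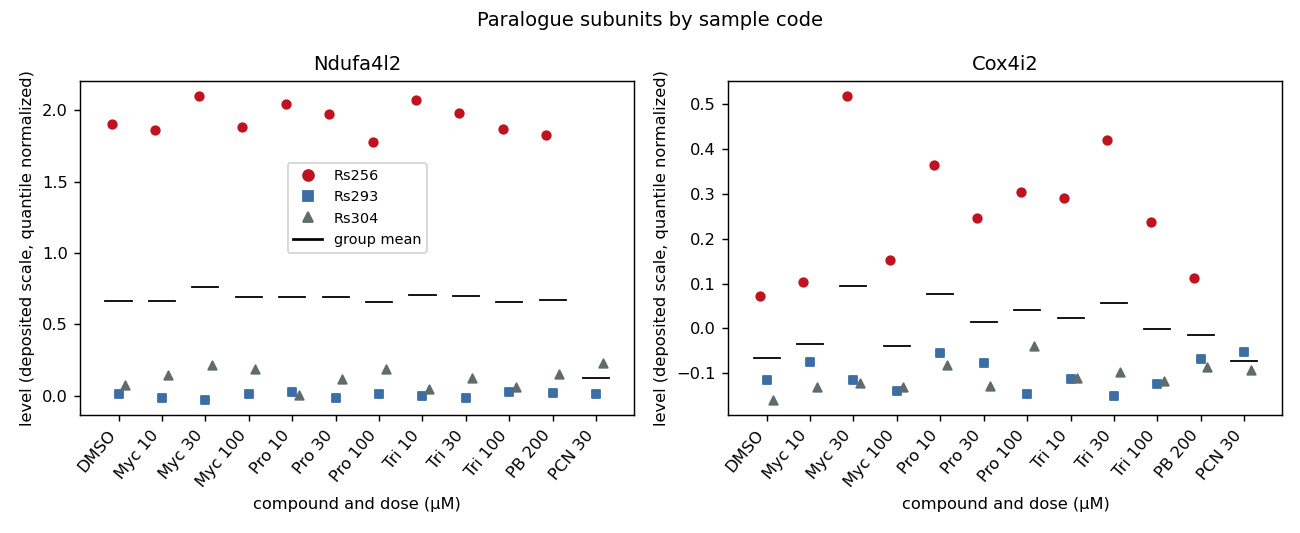
Levels of Ndufa4l2 (left) and Cox4i2 (right) on each of 35 arrays (deposited scale, quantile normalized) by compound and dose in uM, with marker and colour for the code and black bars for the group mean. The Rs256 arrays lie at 1.78 to 2.10 for Ndufa4l2 and the other arrays at -0.03 to 0.23; PCN has no Rs256 array.

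Neither paralogue passed against DMSO: at 100 uM propiconazole Ndufa4l2 differed by -0.01 and Cox4i2 by 0.11. Complex II was higher in Rs256 at 4 of 5 probe sets, with Sdha up by 0.19 (SE 0.0237) and Sdhb by 0.07, against 29% of all probe sets called higher. Complex III was lower at 4 of 8, with the hinge protein Uqcrh down by 0.17. Within complex I, the iron-sulfur subunit Ndufs7 was higher by 0.21 and Ndufb8 by 0.19, while the small flavoprotein subunit Ndufv3 was lower on both probe sets, by 0.41 and 0.10, and Ndufb2 by 0.25. Cox6a2 was lower in Rs256 by 0.28 (SE 0.0548). On the deposited values 15 members passed in place of 30, with no share of all probe sets set beside that count. Between Rs293 and Rs304, 18 of 81 members passed (1 higher and 17 lower in Rs293), against 26.8% of all.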

How the data were processed

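RNA of each culture was hybridised to 1 Affymetrix array with biotin label, per the labels. The authors deposited 1 score per probe set and array, a log-like value whose base, centring and normalization are not given in the sources used here. The number of arrays, 35, limits the precision. Probe sets were named through the platform annotation: 20826 name 1 gene, 436 several and 9780 none.

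Values were quantile normalized (limma 3.58.1, R 4.3.3). Probe sets above the array's median on at least 2 arrays were kept, 57 control probe sets left out. All 35 arrays were fitted with 12 group means (lmFit, eBayes, two-sided), with Benjamini-Hochberg adjustment over all probe sets within a comparison and calls at 0.05. Comparisons were 11 treatments with DMSO, 9 triazole pairs, 3 slopes on log10 dose, and the codes (group and code terms). p-values measure the spread between these samples.

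The codes pair the samples: deviations from the group mean correlated between each treated array and the DMSO array of its code at 0.32 to 0.91. Fits with the code as a replicate block were run beside the others.

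Members and lists were chosen with earlier results of these data known. Named were all members called, the largest rise and fall per 100 uM comparison, and isoform pairs. Also named were the listed core and complex IV subunits, up to 5 members called elsewhere, and the largest code differences. Alternatives were the block, no or median normalization, no filter, 1 probe set per gene, fewer groups, and leaving out arrays. The script was tested on simulated data.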

Additional observations from a re-analysis of the deposited data

Results flagged for a closer look

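The response of Cox6a2, the muscle isoform of complex IV subunit 6A, differed between triazoles at 100 uM when the code was a replicate block. Propiconazole exceeded myclobutanil by 0.72 (adjusted p = 0.000705) and triadimefon by 0.41 (adjusted p = 0.0467). All 3 propiconazole arrays lay above the myclobutanil array of the same code, and above the triadimefon array of the same code. In the same blocked comparisons the macrophage marker Cd68 was higher by 0.65 and 0.41, and Vim (by 0.39 and 0.23) and Cyp2c11 (by 0.59 and 0.48) were lower. Each was the only called probe set of its cell type list, and their part was not tested. Without the block neither difference passed (adjusted p = 0.0558 and 0.443).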

How the results depend on the processing

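The codes pair the samples, and with the replicate block 6 members passed for propiconazole 100 uM (2 without), 1 for myclobutanil (0 without), 3 for triadimefon (1 without), 1 over the other 8 treatments (0 without), 2 over the pairs (0 without) and 7 over the slopes (1 without). The 4 calls made without the block were also made with it. On the deposited values, and with arrays centred on their median, propiconazole had 1 and triadimefon 0, and the Rs256 difference had 15 and 13 in place of 30. With only the groups compared in the fit, propiconazole had 1, triadimefon 0 and the slopes 0. Triadimefon had 0 with no filter, and the pairs 1 with 1 probe set per gene (fewer probe sets tested). Leaving out arrays or codes gave 1 to 4 for propiconazole and 0 to 1 for triadimefon, and the myclobutanil count stayed at 0. Apart from the block, the share of all probe sets called is not set beside these counts. They thus do not show how the members stand against all probe sets. Leaving out the 2 arrays that stood apart was chosen after seeing the data. It gave 4 for propiconazole (1 higher, 3 lower; 12.2% of all probe sets) and 2 over the slopes (2.84%). With the block as well, it gave 10 for propiconazole (28.5%), 2 for myclobutanil (7%), 7 for triadimefon (10.9%), 1 over the other 8 treatments (0.239%), 2 over the pairs (1.01%) and 6 over the slopes (10.1%). Atp5mc3 turned direction on the deposited and the centred values, to 0.31 and 0.30 with propiconazole 30 uM and to 0.023 and 0.017 with triadimefon 100 uM. Except as stated, the cause was not tested.

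The 2 arrays that stood apart widened the errors of the members low on them, which limits what 3 arrays per group can show for these members. The base of the deposited scale is unknown, so no fold is given. Signal over background was not analysed here.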

Other observations

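The 2 probe sets that name Cycs beside its related sequences, and so were not counted as members, differed from DMSO by -0.05 and 0.01 with propiconazole at 100 uM and by -0.06 and -0.12 with myclobutanil, and none of these passed limma's test. None of the 9 probe sets naming a member beside another gene passed at 100 uM of any triazole without the block.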
